A study of Mus musculus with 4 samples.

Results

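The mouse mitochondrial ribosomal RNAs were examined for polyadenylated ends at their 3′ terminus and inside the transcript. They are mt-Rnr1 (ENSMUSG00000064337.1, mitochondrial plus strand, 955 nt from position 70), the RNA of the small mitochondrial ribosomal subunit, and mt-Rnr2 (ENSMUSG00000064339.1, same strand, 1582 nt from position 1094), the RNA of the large subunit. These are 2 of the 37 annotated mitochondrial genes, and they were taken by position alone. All plus-strand reads from the second base of each RNA to 11 nt past its annotated end entered, because the bounds were applied in the deposited coordinates, which count from 0. This gave 904 of 236029 cleavage positions in the CU5T45 library and 909 of 180853 in the oligo(dT)10-25 library. These positions held 33686 CU5T45 reads, 18.2% of its mitochondrial reads, and 42696 oligo(dT)10-25 reads, 22.0% of its mitochondrial reads. Of the CLIP alignments, 2606 of 1101047 in replicate 1 and 2797 of 1352122 in replicate 2 had their midpoint in either RNA.

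The 3'READS libraries map polyadenylated ends by sequencing RNA fragments that carry a poly(A) stretch, and 1 library was made with each of 2 oligos. Both used commercial total RNA of a mix of 11 mouse cell lines, which are not separated in the data, and both began with poly(A)-selected, fragmented RNA. Fragments were captured either on beads with the CU5T45 oligo, of 5 U and 45 T, washed in a formamide buffer and released with RNase H, or on the kit's oligo(dT)10-25 beads, of 10 to 25 T. The other 2 samples are CLIP-seq replicates of CstF64, an RNA-binding subunit of the nuclear cleavage stimulation factor, from UV-irradiated, proliferating cells of the mouse myoblast line C2C12.

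The CU5T45 library held 6738355 reads and the oligo(dT)10-25 library 3482826, and the mitochondrial genome took 2.74% and 5.57% of them. Where no read was found, up to 3 reads remain possible, or 0.445 reads per 1e6 library reads (CPM) for CU5T45 and 0.861 CPM for oligo(dT)10-25. Since neither oligo has a replicate, the values compare 2 libraries rather than 2 conditions, and each 95% interval holds the error of counting alone. Amplified copies were not identified, which makes such intervals too narrow. The oligo, the wash and the release differed together and cannot be told apart.

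Both ribosomal RNAs are cut from 1 long transcript of the mitochondrial heavy strand, in which tRNAs lie between the coding genes and are excised to free them. The tRNA mt-Tf precedes mt-Rnr1, mt-Tv separates the ribosomal RNAs, and mt-Tl1 follows mt-Rnr2. A mitochondrial poly(A) polymerase adds A to the freed 3′ ends, and the tails of ribosomal RNAs are known to be short. In human cells, polyadenylated fragments that end inside mitochondrial transcripts are known as intermediates of RNA decay.

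No mapped end whose next base lies in an annotated mitochondrial gene was followed by a genomic A. Bases outside annotated genes were not available, so ends before them were not checked, which leaves out most minus-strand reads. On the mitochondrial plus strand, 5310 checked positions are followed by a genomic A, and 0 CU5T45 and 0 oligo(dT)10-25 reads ended at any of them. The same held at the 4408 such positions of the minus strand. This pattern appeared when the deposited coordinates were counted from 0, and all positions are given here counted from 1. An end that falls within a run of A is therefore placed at the last A of that run. Inside mt-Rnr1, 589 of 944 positions could hold an end, since the other 355 precede an A, and inside mt-Rnr2 970 of 1571 could, since 601 precede an A.

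The sequences around the ends on which the results turn are shown as 30 nt of the plus strand, 5′ to 3′, from GENCODE M21 transcripts at the files' mm9 positions. The capitals mark the last mapped base and the base after it. Shown are the ends of both RNAs, the leading internal end of each, position 1930 beside that of mt-Rnr2, and 4 others with many reads or with a high or low ratio between the oligos.
mt-Rnr1 terminal end (chrM:1005-1034): gaaagtgtgcttggaataaTCatagtgtag
mt-Rnr1 internal end at 607 (chrM:588-617): ggacttggcggtactttatATccatctaga
mt-Rnr1 internal end at 905 (chrM:886-915): agcaatgaagtacgcacacACcgcccgtca
mt-Rnr1 internal end at 383 (chrM:364-393): gtcaactataaataaataaATagaattaaa
mt-Rnr2 terminal end at 2676 (chrM:2657-2686): ctctaacctagagaaggttATtagggtggc
mt-Rnr2 internal end at 1924 (chrM:1905-1934): aggaactcggcaaacaagaACcccgcctgt
mt-Rnr2 internal end at 1930 (chrM:1911-1940): tcggcaaacaagaaccccgCCtgtttacca
mt-Rnr2 internal end at 2473 (chrM:2454-2483): tggtgtagaagctattaatGGttcgtttgt
mt-Rnr2 internal end at 2564 (chrM:2545-2574): ctatttacgatttctcccaGTacgaaagga

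The terminal ends of both RNAs were sharply placed, and by the same nucleotide in both libraries. At mt-Rnr1 the last annotated base had 7650 CU5T45 reads and 17816 oligo(dT)10-25 reads, and these were 97.4% and 97.5% of the reads in its end window. The window spans the 21 positions within 10 nt of the annotated end in the deposited coordinates. The base before it, position 1023, had 182 and 427 reads and position 1026 had 11 and 19, so nearly all terminal reads of mt-Rnr1 shared 1 end. At mt-Rnr2, position 2676 had 1685 CU5T45 reads and 4292 oligo(dT)10-25 reads, 80.3% and 84.2% of its window. That base lies 1 nt past the annotated end and is an A, so an RNA that stops at the annotated end and carries an A tail is placed there too. The end of mt-Rnr2 was spread more widely than that of mt-Rnr1. Position 2681 had 96 CU5T45 reads and 229 oligo(dT)10-25 reads, and position 2677 had 135 and 188.

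Terminal reads were fewer per library with CU5T45 at both RNAs. The end window of mt-Rnr1 held 7854 CU5T45 reads (1166 CPM) and 18280 oligo(dT)10-25 reads (5249 CPM), a ratio of library shares of 0.222 (95% interval 0.216 to 0.228). The end window of mt-Rnr2 held 2098 CU5T45 reads (311 CPM) and 5095 oligo(dT)10-25 reads (1463 CPM), a ratio of 0.213 (0.202 to 0.224). Both ends were thus lower in CU5T45 by nearly the same factor, and the intervals of the 2 ratios overlap. By shares of mitochondrial plus-strand reads the ratios were 0.471 and 0.452. With each position counted once they were 0.511 (0.150 to 1.61) and 0.906 (0.374 to 2.23), intervals that include 1. Single positions within a window did not all share it. At mt-Rnr2 the ratio was 0.203 (0.192 to 0.215) at position 2676 and 0.371 (0.295 to 0.466) at the neighbouring position 2677. At mt-Rnr1 it was 0.222 (0.216 to 0.228) at the last annotated base and 0.220 (0.184 to 0.263) at position 1023.

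Of the 4 mitochondrial mRNAs with 30 or more end reads, the end of mt-Cytb, which encodes cytochrome b, was nearest to the ribosomal RNAs, with a ratio of 0.260 (0.257 to 0.264). Its log2 ratio lay 0.26 from the mean of the ribosomal RNAs, over 2 libraries. The next was mt-Nd1, which encodes a subunit of respiratory complex I, with a ratio of 0.580 and a log2 distance of 1.42. The other 2 mRNAs lay further away.

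Inside the RNAs the libraries differed in another way, and mt-Rnr1 and mt-Rnr2 parted. Internal reads of mt-Rnr1 numbered 14862 in CU5T45 (2206 CPM) and 7989 in oligo(dT)10-25 (2294 CPM), a ratio of 0.962 (0.936 to 0.988) that turned to 2.04 (1.99 to 2.10) when both were taken as shares of mitochondrial plus-strand reads. Internal reads of mt-Rnr2 numbered 8872 in CU5T45 (1317 CPM) and 11332 in oligo(dT)10-25 (3254 CPM), a ratio of 0.405 (0.394 to 0.416) by library share and 0.859 by mitochondrial plus-strand share. All mitochondrial plus-strand reads together had a ratio of 0.471 (0.468 to 0.475). The internal share, which needs no scaling between libraries, was higher in CU5T45 at both RNAs. Internal ends made up 65.4% of mt-Rnr1 reads in CU5T45 (exact interval 64.8 to 66.0) and 30.4% in oligo(dT)10-25 (29.9 to 31.0). In mt-Rnr2 they made up 80.9% in CU5T45 (80.1 to 81.6) and 69.0% in oligo(dT)10-25 (68.3 to 69.7).

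The odds of an internal over a terminal read, CU5T45 over oligo(dT)10-25, were 4.33 (4.17 to 4.50) in mt-Rnr1 and 1.90 (1.79 to 2.02) in mt-Rnr2. The mt-Rnr1 value rests partly on 1 position and was 3.33 without it. When each position was counted once instead of each read, the odds were 1.51 (0.474 to 5.20) in mt-Rnr1 and 0.837 (0.336 to 2.05) in mt-Rnr2, and both intervals include 1. The same odds ratio was 3.58 (3.42 to 3.74) in mt-Cytb, between the values of the ribosomal RNAs, 1.33 (1.23 to 1.43) in mt-Nd4 and 1.25 (1.21 to 1.30) in mt-Nd1. In mt-Nd2 it was below 1, at 0.876 (0.813 to 0.944). The last 3 genes encode subunits of complex I.

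**Figure D1:**
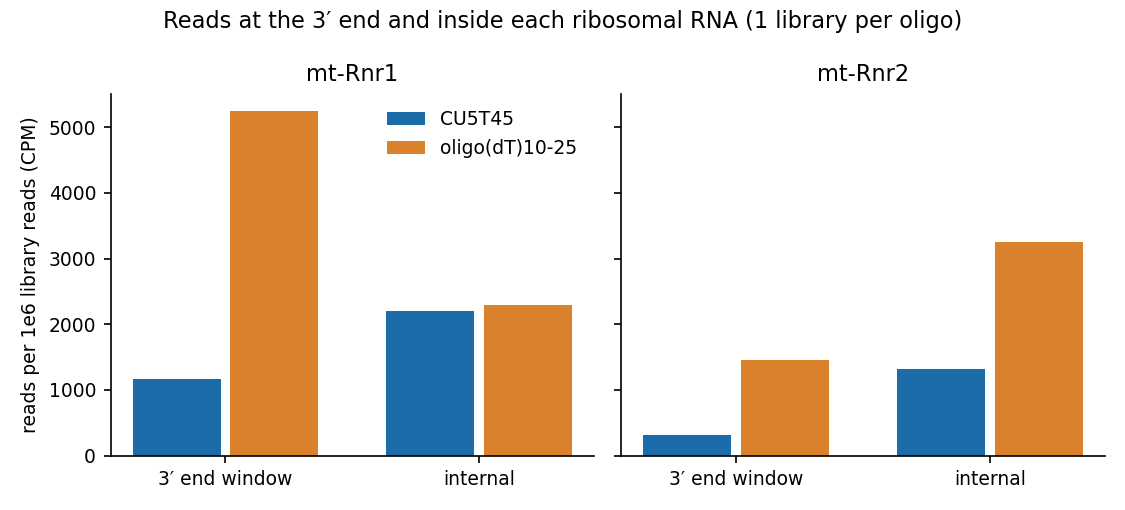
Bars give reads per 1e6 library reads (CPM) in the 3′ end window and inside each ribosomal RNA, CU5T45 left of oligo(dT)10-25, 1 library each. At the ends the CU5T45 bars are low (1166 and 311 CPM), while inside mt-Rnr1 both libraries stand at nearly the same height (2206 and 2294 CPM).

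Most internal ends lay at the same nucleotides with either oligo. In mt-Rnr1, 426 of the 589 positions that could hold an internal end had a read in either library (72.3%). CU5T45 reads lay at 374 of them and oligo(dT)10-25 reads at 372, and 320 were used in both, which is 85.6% of the CU5T45 positions and 86.0% of the oligo(dT)10-25 positions. In mt-Rnr2, 600 of 970 positions were used (61.9%), 511 in CU5T45, 517 in oligo(dT)10-25 and 428 in both, which is 83.8% and 82.8%. The shared positions carried nearly all internal reads, 99.3% in CU5T45 and 98.8% in oligo(dT)10-25 for mt-Rnr1, and 98.4% and 98.0% for mt-Rnr2. Over the positions used in mt-Rnr1, Pearson's r of log2(CPM + 1) between the libraries was 0.857 and Spearman's rho 0.728, and in mt-Rnr2 they were 0.840 and 0.721. These values describe neighbouring positions of 1 RNA, which are not independent. The overlap over all positions of the libraries is not given here. Whether such sharing is particular to these RNAs was therefore not tested.

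Internal reads were more concentrated in mt-Rnr1 under CU5T45 and in mt-Rnr2 under oligo(dT)10-25. The leading position of mt-Rnr1, 607, held 41.7% of its internal CU5T45 reads and 24.0% of its internal oligo(dT)10-25 reads. The leading position of mt-Rnr2, 1924, held 6.97% of its internal CU5T45 reads and 22.2% of its internal oligo(dT)10-25 reads. The 10 most used positions of each library held 65.7% and 52.6% of internal reads in mt-Rnr1, and 32.4% and 42.4% in mt-Rnr2. Each RNA thus had many minor ends beside a few strong ones.

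In bins of 50 nt, the reads of mt-Rnr1 peaked at chrM:571-620, with 8510 CU5T45 reads (1263 CPM) and 2843 oligo(dT)10-25 reads (816 CPM). Smaller peaks lay at chrM:871-920, with 2367 and 1268 reads, and at chrM:471-520, with 1118 and 770. In CU5T45 the bin of the largest peak alone exceeded the end window of mt-Rnr1 in CPM, which was not so in oligo(dT)10-25. In mt-Rnr2 the largest bins were chrM:1895-1944, with 1760 CU5T45 reads (261 CPM) and 3374 oligo(dT)10-25 reads (969 CPM), and chrM:1345-1394, with 1739 and 1612 reads. The third, chrM:2445-2494, had 715 and 431 reads.

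Reads of mt-Rnr2 thinned out in 1 stretch of the RNA. The bin chrM:1645-1694 had 9 CU5T45 and 3 oligo(dT)10-25 reads, chrM:1695-1744 had 6 and 1, and chrM:1745-1794 had 0 and 0. These 3 bins were under the minimum of 30 reads over both libraries and were given no ratio. The bin on the other side, chrM:1795-1844, had 285 CU5T45 reads and 167 oligo(dT)10-25 reads. All 19 bins of mt-Rnr1 passed the minimum, and its least filled bin was the most 5′ one, chrM:71-120, with 14 and 29 reads.

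**Figure D2:**
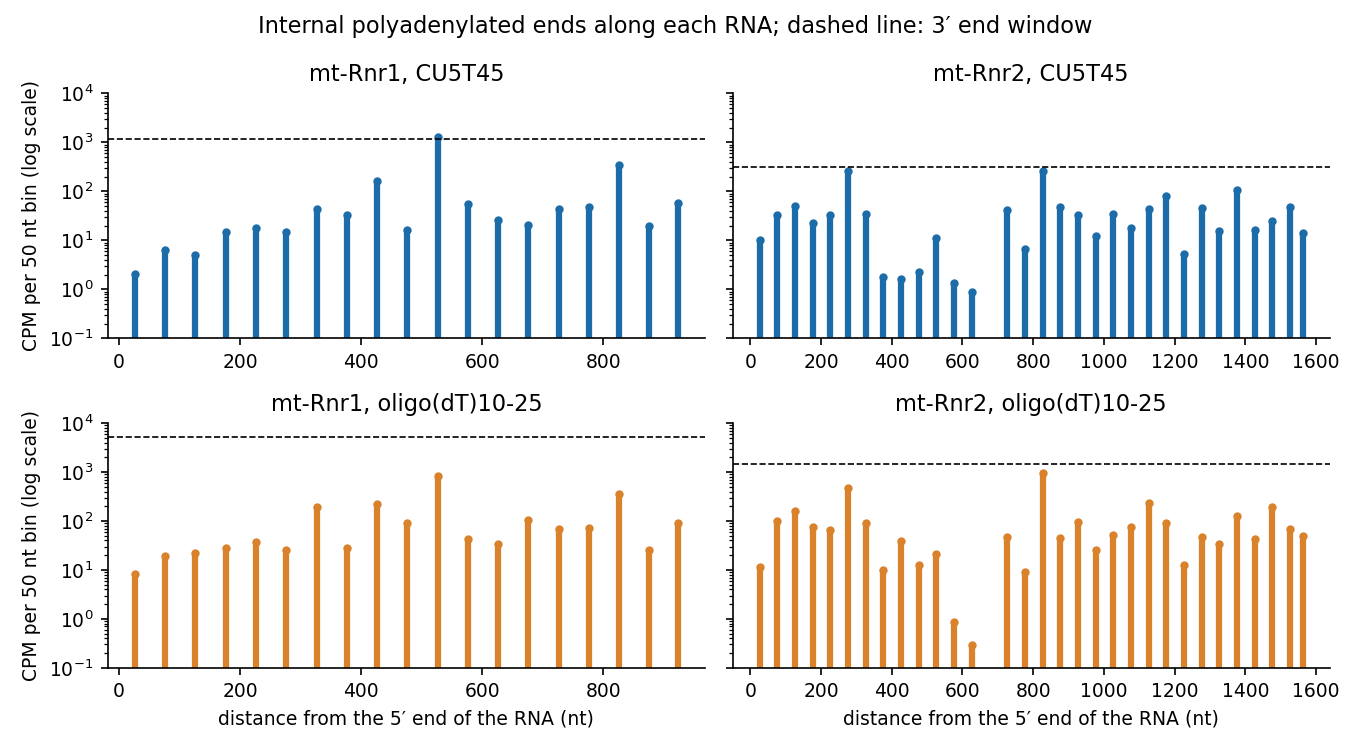
CPM per 50 nt bin (log scale) against the distance from the 5′ end of each RNA, with CU5T45 above oligo(dT)10-25 and the 3′ end window as a dashed line. The tallest bin of mt-Rnr1 (1263 CPM) reaches the CU5T45 end line (1166 CPM) and stays below the oligo(dT)10-25 line (816 against 5249 CPM), and mt-Rnr2 has a gap with few or no reads in both libraries.

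Of the 48 bins that passed, 24 were at least 2-fold lower in CU5T45 and 0 were at least 2-fold higher. Of all 17587 bins of the libraries with 30 or more reads, 14.5% were 2-fold lower and 12.7% 2-fold higher. Of the 154 mitochondrial plus-strand bins outside the ribosomal RNAs, 24% were 2-fold lower and 2.6% higher. By RNA, 7 of 19 bins of mt-Rnr1 and 17 of 29 of mt-Rnr2 were 2-fold lower, with median ratios of 0.614 and 0.411. The median over all bins was 1.09, and over the other mitochondrial plus-strand bins 0.752. By shares of mitochondrial plus-strand reads, 9 bins were 2-fold lower and 6 higher.

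The ratio varied along each RNA by far more than counting error. In mt-Rnr1 it was highest at chrM:571-620, at 1.55 (1.48 to 1.62), and at chrM:621-670, at 1.32 (1.09 to 1.61) with 378 CU5T45 and 148 oligo(dT)10-25 reads. It was lowest in the bin just before the peak, chrM:521-570, at 0.183 (0.146 to 0.228) with 110 and 311 reads, and at chrM:721-770, at 0.197 (0.162 to 0.240) with 142 and 372 reads. Adjacent stretches of 50 nt thus stood on opposite sides of 1. In mt-Rnr2 the highest ratios were 1.02 (0.844 to 1.25) at chrM:1945-1994, with 317 and 160 reads, and 0.965 (0.797 to 1.17) at chrM:2345-2394, with 310 and 166 reads. The lowest were 0.0421 (0.0205 to 0.0778) at chrM:1495-1544, with 11 and 135 reads, and 0.131 (0.110 to 0.155) at chrM:2545-2594, with 167 and 659 reads. By library share, no bin of mt-Rnr2 had an interval wholly above 1, against 2 of mt-Rnr1. By share of mitochondrial plus-strand reads, chrM:1945-1994 stood at 2.17 (1.79 to 2.64).

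**Figure D3:**
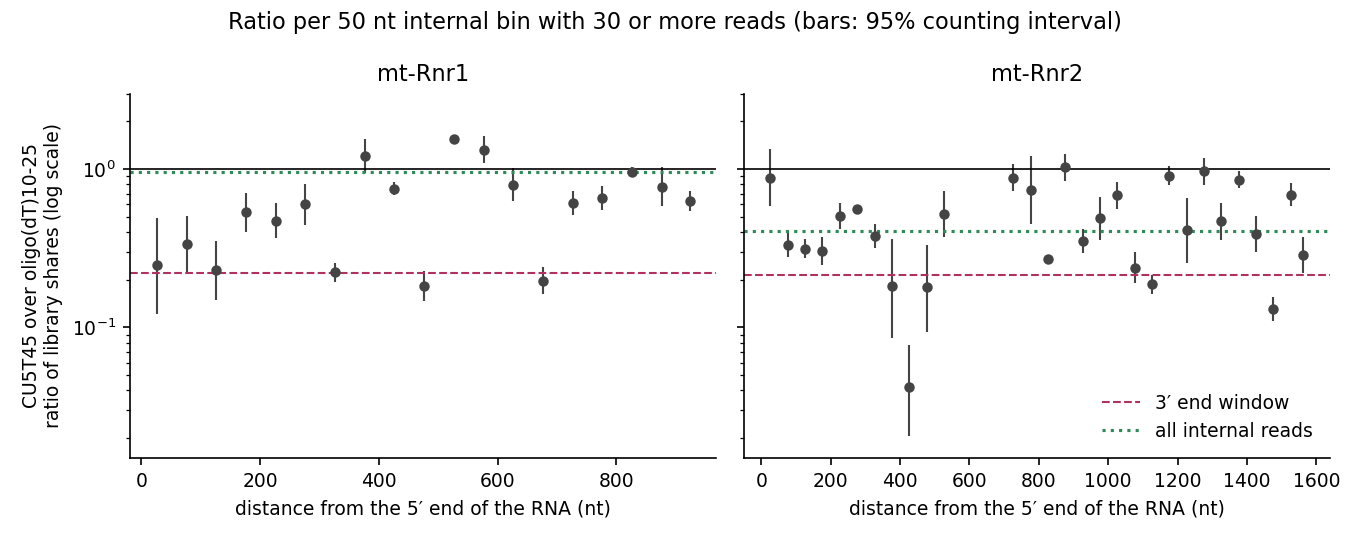
Ratio of library shares, CU5T45 over oligo(dT)10-25 (log scale), per 50 nt internal bin with 30 or more reads, with 95% counting intervals, the ratio of the end window (dashed) and of all internal reads (dotted). Bins of mt-Rnr1 run between 0.183 and 1.55 and those of mt-Rnr2 between 0.0421 and 1.02, so single bins lie well off the line for the whole RNA.

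Single positions showed the same spread at a finer scale. The most used internal end, position 607 of mt-Rnr1 (nt 538 of the RNA), had 6190 CU5T45 reads (919 CPM) and 1920 oligo(dT)10-25 reads (551 CPM), a ratio of 1.67 (1.58 to 1.76). Its neighbours on the 3′ side had similar or higher ratios. Position 608 had 550 and 167 reads, a ratio of 1.70 (1.43 to 2.04), position 609 had 220 and 60, a ratio of 1.90 (1.42 to 2.57), and position 611 had 135 and 34, a ratio of 2.05 (1.40 to 3.08). On the 5′ side, position 605 had 360 and 152 reads, a lower ratio of 1.22 (1.01 to 1.49), and position 602 had 84 and 42, a ratio of 1.03 (0.706 to 1.54). Both of these were looked up after the values were seen. The odds of position 608 over 607, CU5T45 over oligo(dT)10-25, were 1.02 (0.851 to 1.23). Within 10 nt of position 607, 15 positions together held 54.2% of the internal CU5T45 reads of mt-Rnr1 and 32.0% of its internal oligo(dT)10-25 reads.

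Other strong ends of mt-Rnr1 were near parity by library share. Position 905, in the stretch conserved among small-subunit ribosomal RNAs around the decoding centre, had 785 CU5T45 reads and 440 oligo(dT)10-25 reads, a ratio of 0.922 (0.820 to 1.04). Position 482 had 569 and 260 reads, a ratio of 1.13 (0.975 to 1.32), and position 886 had 470 and 209, a ratio of 1.16 (0.986 to 1.38). The interval includes 1 at each of these 3. By shares of mitochondrial plus-strand reads they were higher in CU5T45, at 1.96 (1.74 to 2.20), 2.40 (2.07 to 2.79) and 2.47 (2.09 to 2.92). Position 383 went the other way, with 135 CU5T45 reads (20.0 CPM) and 623 oligo(dT)10-25 reads (179 CPM), 8.93-fold lower in CU5T45. In the printed sequence it is the last of 3 A within a stretch of A and T, with 8 A among its last 10 bases. Position 536, with 7 A among its last 10 bases, had 35 and 110 reads, 6.08-fold lower in CU5T45.

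In mt-Rnr2, the leading end at position 1924 (nt 831 of the RNA) had 618 CU5T45 reads (91.7 CPM) and 2512 oligo(dT)10-25 reads (721 CPM), 7.86-fold lower in CU5T45. Position 1930, 6 nt downstream, had 290 CU5T45 reads and 172 oligo(dT)10-25 reads, a ratio of 0.872 (0.719 to 1.06). The odds of position 1930 over 1924, CU5T45 over oligo(dT)10-25, were 6.85 (5.54 to 8.49), so neighbouring ends of 1 RNA differed widely. This pair and that of positions 607 and 608 were chosen after their values were seen. Position 2564 had 43 and 424 reads, 19.1-fold lower in CU5T45, and position 2563 had 6 and 95, 30.6-fold lower. Both lie at the start of the conserved sarcin-ricin loop, the part of large-subunit ribosomal RNA that binds elongation factors. Nearly all reads of this pair of ends came from the oligo(dT)10-25 library.

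Other ends of mt-Rnr2 did not share this. Position 2254 had 462 CU5T45 reads and 216 oligo(dT)10-25 reads, a ratio of 1.11 (0.939 to 1.31), and position 1391 had 383 and 176, a ratio of 1.13 (0.939 to 1.35). By shares of mitochondrial plus-strand reads these ratios were 2.345 (1.99 to 2.77) and 2.386 (1.99 to 2.87). Position 1365 was lower, with 198 and 359 reads and a ratio of 0.285 (0.238 to 0.340). The highest ratios among ends with 100 or more reads were 2.25 (1.68 to 3.04) at position 2473, with 252 and 58 reads, and 1.48 (1.12 to 1.97) at position 1384, with 200 and 70. Strong ends of mt-Rnr2 thus lay on both sides of 1.

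Over both RNAs, 86 internal positions with 30 or more reads were 2-fold lower in CU5T45 and 10 were 2-fold higher, beside 13.6% and 15.4% of all 24272 such positions and 24% and 5.29% of the 416 on the mitochondrial plus strand outside the ribosomal RNAs. By shares of mitochondrial plus-strand reads the balance turned, with 38 positions 2-fold lower and 63 higher. In mt-Rnr1, 26 of 99 positions were 2-fold lower and 4 higher, with a median ratio of 0.821. In mt-Rnr2, 60 of 131 were lower and 6 higher, with a median of 0.562. The median was 1.14 over all positions and 0.875 over the other mitochondrial plus-strand positions. The largest ratio in mt-Rnr1, at position 417 and looked up after the values were seen, was 12.2 (3.18 to 103) and rested on 47 CU5T45 and 2 oligo(dT)10-25 reads.

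Median ratios were lowest at ends in runs of A. Grouped by the number of A in a row at the mapped end (0, 1, 2, or 3 or more), the median ratio of positions with 30 or more reads was 0.815, 0.647, 0.579 and 0.315, over 86, 62, 45 and 37 positions. In mt-Rnr2 alone it was 0.650, 0.577, 0.553 and 0.224. In mt-Rnr1 alone it was 0.905, 0.714, 0.843 and 0.574, which is not a steady order. By summed reads, ends at 3 or more A held 7.29% of the internal CU5T45 reads of mt-Rnr1 and 20.3% of its oligo(dT)10-25 reads, a ratio of 0.346 (0.320 to 0.374) with position 383 among them, while in mt-Rnr2 they held 12.2% and 11.6%. The summed values follow the strongest positions, so mt-Rnr2 differs from its medians there. The part of oligo binding at genomic A in these values was not tested.

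**Figure D4:**
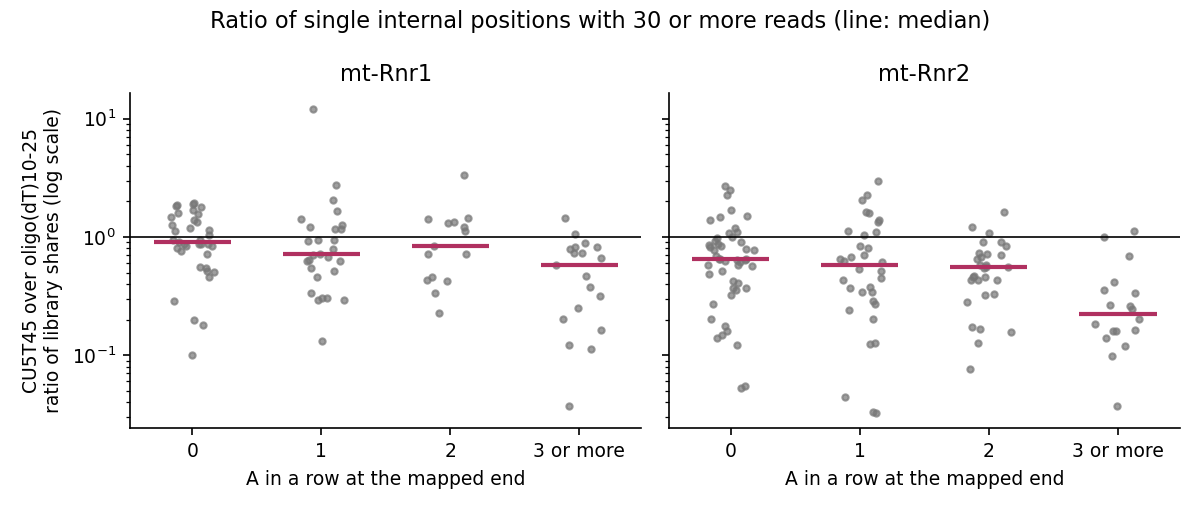
Each point is the ratio of library shares, CU5T45 over oligo(dT)10-25 (log scale), at 1 internal position with 30 or more reads, grouped by the number of A in a row at the mapped end, with medians as lines. The medians at 3 or more A are the lowest in both RNAs, 0.574 in mt-Rnr1 and 0.224 in mt-Rnr2, and the groups overlap.

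Other sequence features differed between the RNAs. The mapped base was A for 75.4% of internal CU5T45 reads and 75.8% of internal oligo(dT)10-25 reads of mt-Rnr1, and for 54.6% and 67.4% of those of mt-Rnr2. The placing of ends at the last A of a run raises these shares, so they are compared only between the libraries. Grouped by the number of A among the next 10 bases (0 to 2, 3 or 4, or 5 or more), the median ratio of positions with 30 or more reads was 0.840, 0.875 and 0.465 in mt-Rnr1, over 33, 51 and 15 positions. In mt-Rnr2 it was 0.650, 0.546 and 0.517, over 47, 57 and 27 positions. By summed reads the ratios were 0.797, 1.22 and 0.337 in mt-Rnr1. In mt-Rnr2 they were 0.380, 0.422 and 0.432, the opposite order to its medians. The nuclear poly(A) signal AATAAA, searched on the plus strand in the last 40 nt before the end, was present at 6.34% of the used positions of both RNAs and at 6.80% of those that could hold an end. For ATTAAA, searched the same way, the shares were 13.1% and 12.1%. Counted by position, used ends thus held either hexamer about as often as available ones, and some windows may hold both. By summed reads of both RNAs, AATAAA ends held 3.06% of CU5T45 and 5.85% of oligo(dT)10-25 internal reads. The ATTAAA ends held 3.90% and 7.58%. In mt-Rnr1 alone, AATAAA ends held 2.73% and 9.99%, against 7.81% of the positions that could hold an end.

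The junctions with the neighbouring tRNAs gave few reads on 1 side and many on the other. Around the start of mt-Rnr1, where mt-Tf ends, there were 4 CU5T45 reads and 36 oligo(dT)10-25 reads within 10 nt. Around the start of mt-Rnr2, where mt-Tv ends, there were 1333 and 1611, a ratio of 0.428 (0.397 to 0.460). Most of these lay at position 1094, with 995 and 1020 reads, where the base is an A and the end of mt-Tv with an added A would be placed. That position is just outside the internal stretch of mt-Rnr2 as counted here. At the end of mt-Tl1, beyond mt-Rnr2, there were 41 and 83 reads. Mapped polyadenylated ends were therefore far more numerous at the 5′ boundary of mt-Rnr2 than at that of mt-Rnr1. However, mt-Tf begins at position 1 of the mitochondrial sequence, so a read starting before it would cross the edge of the linear sequence. Whether such reads could be placed was not tested.

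CstF64 CLIP alignments were dense on both ribosomal RNAs relative to other mitochondrial RNA. In replicate 1, mt-Rnr1 had 875 plus-strand alignments and in replicate 2 it had 982, which is 824 (770 to 880) and 753 (706 to 801) per 1000 nt and 1e6 alignments. For mt-Rnr2 the alignments were 1731 and 1815, and the densities 988 (942 to 1035) and 843 (805 to 883). The rest of the mitochondrial plus strand had densities of 99.3 and 93.7. Among mRNAs, mt-Nd1 had 344 and 322, mt-Co1, which encodes a subunit of cytochrome c oxidase, 175 and 168, and mt-Cytb 149 and 153. The ribosomal RNAs held 63.4% and 61.6% of mitochondrial plus-strand alignments, on 15.7% of its length. The rest includes mt-Co2, mt-Atp8, mt-Atp6, mt-Co3, mt-Nd3 and mt-Nd4l, with at most 9 end reads and 1 internal read per 3'READS library. Their length counts in the density of the rest and in the 15.7%. Whether alignments could be placed in these genes was not tested. On the minus strand of mt-Rnr1 there were 1 and 2 alignments, and on that of mt-Rnr2 1 and 8. The densities are not scaled to the amount of each RNA, and no measure of RNA amount in C2C12 cells was analysed here. No library without the antibody was analysed either, so how much of this is background RNA was not tested. Whether the replicates come from separate cultures is not given, so each is shown singly.

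The alignments fell in the same places in both replicates. By the lower of the replicates, the fullest bins of mt-Rnr1 were chrM:521-570, with 170 alignments in replicate 1 and 175 in replicate 2, chrM:321-370, with 106 and 119, and chrM:571-620, with 71 and 81. In mt-Rnr2 they were, by the same measure, chrM:2145-2194, with 280 and 308, chrM:1845-1894, with 203 and 201, and chrM:1895-1944, with 167 and 166. The bins chrM:1345-1394, with 168 and 144, and chrM:1295-1344, with 158 and 171, were close behind. Alignments with the same start and end in both replicates numbered 714 in mt-Rnr1, 81.6% of replicate 1 and 72.7% of replicate 2. In mt-Rnr2 they numbered 1306, 75.5% and 71.96%. Within these RNAs the replicates thus shared most of their distinct alignments. The same share over all CLIP alignments is not given here, so whether this is particular to these RNAs was not tested.

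**Figure D5:**
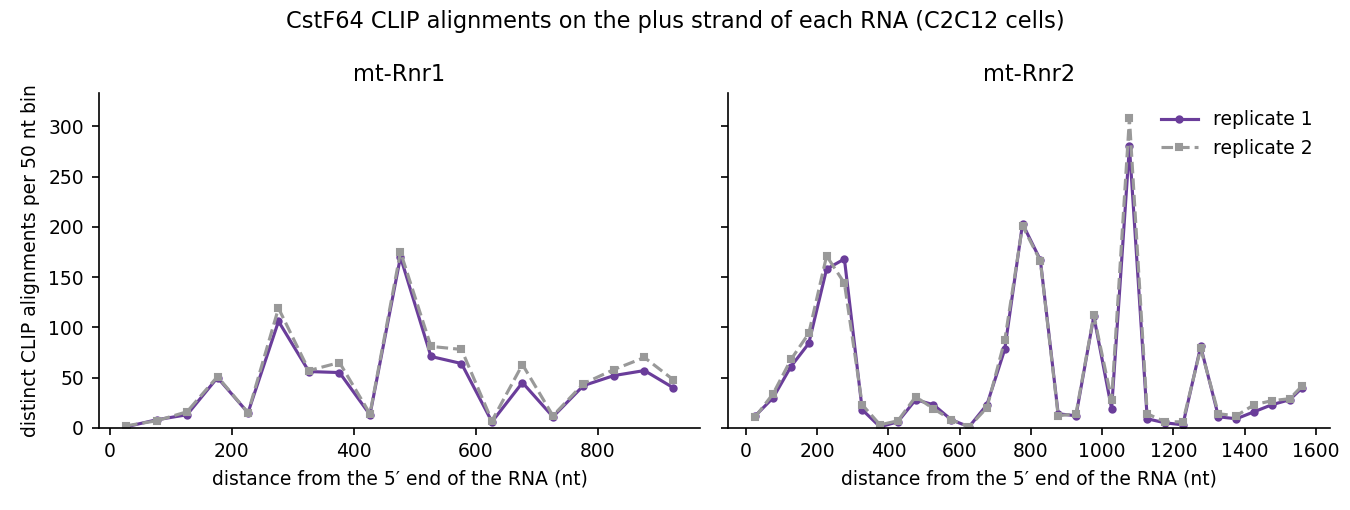
Distinct CstF64 CLIP alignments per 50 nt bin by midpoint against the distance from the 5′ end of each RNA, for replicates 1 and 2. Both lines peak in the same bins, at 170 and 175 alignments in mt-Rnr1 and at 280 and 308 in mt-Rnr2.

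The CLIP peaks and the polyadenylated ends coincided in part. The bin with most CLIP alignments in mt-Rnr1, chrM:521-570, lies just before the bin with most reads, and it had the lowest oligo ratio of that RNA. In mt-Rnr2, chrM:1895-1944 was among the fullest bins for both measures, while chrM:2145-2194, first by CLIP, had 120 CU5T45 and 260 oligo(dT)10-25 reads. The bin chrM:1745-1794, which had no read of either oligo, had 23 and 20 CLIP alignments. The other bins of that gap had few, with 8 and 8 at chrM:1645-1694 and 1 and 1 at chrM:1695-1744. Across the 51 bins of both RNAs, Spearman's rho between reads and alignments was 0.325 and 0.329 for CU5T45 with replicates 1 and 2, and 0.331 and 0.354 for oligo(dT)10-25. These are descriptions, since bins of 1 RNA share libraries and neighbours. The CLIP and the 3'READS samples also come from different cells.

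Around the terminal ends, alignments lay upstream. In the 40 nt before the end of mt-Rnr1 there were 28 alignments in replicate 1 and 33 in replicate 2, and 1 and 6 in the 40 nt after it. At mt-Rnr2 there were 48 and 50 before the end, and 4 and 4 after it. Alignments within an RNA that stops there can lie only upstream, so this order cannot show where CstF64 was placed. Among internal ends, position 1924 of mt-Rnr2 had 193 and 184 alignments before and 54 and 49 after. Position 607 of mt-Rnr1 had 82 and 93 before and 31 and 35 after. At position 905 of mt-Rnr1 the order was the opposite, with 10 and 10 before and 105 and 123 after. Internal ends thus had CLIP alignments on either side.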

How the data were processed

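The libraries were 3'READS of a cell line mix with each of 2 oligos, and 2 CstF64 CLIP-seq replicates. Per the labels, the 3'READS RNA was amplified by 12 cycles of PCR and read from the 5′ end of fragments for 72 nt. Complexes of 85 to 150 kDa were cut out for CLIP. The submitters' processing notes name mm9, Bowtie and Novoalign, without versions or roles, and read filters are not given in the sources used here. The only unit is the read count that the authors deposited per cleavage position or per distinct CLIP alignment, with no normalization stated.

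The ribosomal RNA bounds were applied in the deposited coordinates, which count from 0, and positions were then counted from 1. Gene models and sequence came from GENCODE M21 transcripts (GRCm38). Their mitochondrial bases matched the files in the check of the base after each end, which covered annotated genes only. Reads that also match nuclear copies of mitochondrial DNA were not analysed here. The ratio is CU5T45 over oligo(dT)10-25 shares of library reads, with an exact conditional binomial 95% interval. Shares have Clopper-Pearson intervals and CLIP densities exact Poisson ones. Values called 2-fold had 30 or more reads over both libraries and a ratio of 0.5 or lower or 2 or higher. CLIP midpoints are exact to within 1 nt.

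Named were 3 end positions and 6 internal positions per RNA with most reads, the 2 highest and 2 lowest ratios among internal positions with 100 or more reads, the 3 bins with most reads, the 2 highest and 2 lowest bin ratios, and the 3 bins with most CLIP alignments. The RNAs, lists and rules were chosen with earlier results of these data known. No p-value was computed. Alternatives changed the end window, bin width, read minimum, depth, scaling, the counting of reads or positions, the coordinate base, the leading position, the placing of CLIP alignments and the CLIP replicates. The ratio was tested on simulated Poisson counts with planted changes. These hold no amplified copies and no spread between preparations, so the test does not bear on either. Scripts ran in Python 3.11.15 with scipy 1.17.1, pandas 2.3.3, numpy 2.4.6 and matplotlib 3.10.9.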

Additional observations from a re-analysis of the deposited data

Results flagged for a closer look

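Reads also lay on the strand opposite to the ribosomal RNAs, which the comparisons above do not use, and they exceeded the 3 reads that a count of 0 allows. Within mt-Rnr1 there were 31 minus-strand reads in CU5T45 and 48 in oligo(dT)10-25, at 26 and 42 positions with at most 2 and 3 reads each. Within mt-Rnr2 there were 35 in CU5T45 and 54 in oligo(dT)10-25, at 26 and 40 positions with at most 4 and 5 reads each. These reads were thinly spread, with no strong single end.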

How the results depend on the processing

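Depth limits single positions most: with 30 reads, counting error alone spans a wide ratio, and with 1 library per oligo the spread between preparations is unknown. No paired analysis was possible because each oligo has 1 library and the CLIP replicates form 1 group. An end window of 5 or 20 nt, thinning CU5T45 to the other depth, and bounds counted from 1 left the terminal and internal ratios and the odds within their counting intervals. The last, and the settings applied to named values, were chosen after seeing the data. Counting each position once gave terminal ratios of 0.511 and 0.906, internal ratios of 0.770 and 0.757, and internal odds of 1.51 and 0.837 for mt-Rnr1 and mt-Rnr2, the last reversed. As shares of mitochondrial plus-strand reads, terminal ratios were 0.471 and 0.452 and internal ratios 2.04 and 0.859, the internal one of mt-Rnr1 reversed. As shares of nuclear reads, the terminal ratio of mt-Rnr1 was 0.216 and internal ratios 0.934 and 0.393. Without the leading internal position, internal ratios were 0.739 and 0.484 and odds 3.33 and 2.27. Bins 2-fold lower numbered 38 at 25 nt, 13 at 100 nt and 9 as shares of mitochondrial plus-strand reads, where 6 were higher. Positions 2-fold lower numbered 170 at 10 reads, 28 at 100 reads and 38 by mitochondrial plus-strand share. Positions 2-fold higher numbered 32, 2 and 63 under these, and 4 with CU5T45 thinned. A value was called reversed only if its interval under the main setting excluded 1 and the value crossed 1. Of 34 named values, 4 bins reversed by mitochondrial plus-strand share: chrM:471-520 at 1.59, chrM:321-370 at 1.27, chrM:1345-1394 at 1.18 and chrM:2445-2494 at 1.82. With CU5T45 thinned 0 of them reversed. Named values whose main interval includes 1 could not be called reversed, though some crossed 1 by mitochondrial plus-strand share. Position 905 moved from 0.922 to 1.96, position 1930 from 0.872 to 1.85 and chrM:871-920 from 0.965 to 2.05. CLIP densities by reads were 1030 for mt-Rnr1 and 1324 for mt-Rnr2, and leaving out either replicate gave 753 to 824 and 843 to 988. The cause of these shifts was not tested.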
